A study of Mus musculus with 44 samples.

Results

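The set examined comprised 10 genes that build peptides for, and load them on, major histocompatibility complex (MHC) class I, selected by symbol: *Psmb8*, *Psmb9*, *Psmb10*, *Erap1*, *Tap1*, *Tap2*, *Tapbp*, *Calr*, *Pdia3* and *B2m*. All 10 were among the 14699 genes of the deposited table, and all 10 passed the filter on low values, as did 11963 genes in total. CD45+CD11c+MHCII high cells, dendritic cells (DCs) of the draining lymph node, were sorted 24 h after mice received B16-F10-OVA melanoma cells, or PBS alone, under the skin at ZT3, ZT9, ZT15 or ZT21, where zeitgeber time (ZT) counts hours from lights on. RNA was sequenced from 44 libraries of 1 mouse each. The study asked how the response of DCs depends on the time of injection.

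The control mice that received tumour cells (labelled WT) gave 20 libraries, 5 per timepoint. *Clec9a-cre:Bmal1* flox mice that received tumour cells (labelled KO, named *Bmal1*ΔcDC in the study) gave 12 libraries, 3 per timepoint, and carry floxed *Arntl*, the gene of the core clock protein BMAL1, with a Cre expressed in conventional DCs and their precursors. The control mice that received PBS (sham) gave 12 libraries, 3 per timepoint. All were female, 8–12 weeks old, and kept in light–dark cycles. Other cells of the *Bmal1*ΔcDC mice keep the gene, and the B16-F10-OVA line carries ovalbumin, a foreign antigen.

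*Arntl* was between 8.67 and 24.4 CPM (counts scaled to a common library total) in the control tumour libraries, with a median of 14.8. In the libraries labelled KO it was between 11.5 and 38.0 CPM, with a median of 18.0, and in the sham libraries between 12.3 and 34.8 CPM, with a median of 21.9. It was thus not lower in the libraries labelled KO. Reads were counted over the whole gene, exons outside the floxed part included, so this level does not check the deletion, and *Bmal1*ΔcDC stands here for the label KO. Between 20088012 and 28962671 reads fell on genes in the control tumour libraries, 29406729 to 55799163 in the *Bmal1*ΔcDC libraries and 28003328 to 49590055 in the sham libraries, so depth and condition cannot be told apart. The 5 defining DC genes were detected in every library and added up to at least 10651 CPM, a sum carried by *Cd74* (at least 8299 CPM) and *H2-Ab1* (at least 1461 CPM). *Flt3* was at least at 416 and *Zbtb46* at least at 63.6 CPM. *Itgax*, the gene of CD11c, had a mean of 43.0 CPM in control tumour libraries. Of the T cell genes, *Lck* (93.0), *Cd3g* (61.0), *Cd3e* (57.5), *Cd3d* (45.5) and *Cd2* (44.3 CPM) had higher means there. *Cd4* (39.8), *Cd8b1* (31.7), *Lat* (27.6), *Bcl11b* (27.4) and *Cd28* (21.7 CPM) had lower ones. These CPM were not corrected for transcript length. The 5 melanoma genes added up to at most 14.3 CPM. Markers of other cells differed between conditions. The 5 NK cell genes added up to 15.9–54.1 CPM in control tumour libraries, 37.1–152.6 CPM in *Bmal1*ΔcDC libraries and 77.6–581.1 CPM in sham libraries, and the 7 macrophage and monocyte genes to 82.1–274.5, 153.2–981.5 and 314.8–501.6 CPM. A pair of *Bmal1*ΔcDC libraries stood apart. Replicate 1 at ZT21 had the lowest median correlation with its own group (0.933), and replicate 2 at ZT15 had the highest macrophage and monocyte sum (981.5 CPM) and the highest sum of the 7 genes of type 2 conventional DCs (631 CPM).

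Class I molecules display peptides of the cell's own proteins, or in DCs also of engulfed ones, to CD8+ T cells. The proteasome cuts proteins into peptides, and in DCs and under interferon its catalytic subunits are exchanged for inducible ones, encoded by *Psmb8*, *Psmb9* and *Psmb10*. The transporter TAP, a pair of proteins encoded by *Tap1* and *Tap2*, carries peptides into the endoplasmic reticulum (ER), where the aminopeptidase ERAP1 trims them and tapasin (*Tapbp*), calreticulin (*Calr*) and the disulphide isomerase ERp57 (*Pdia3*) hold the heavy chain and β2-microglobulin (*B2m*) until a peptide fits. Calreticulin and ERp57 also fold many other glycoproteins and belong to the ER chaperones that respond to unfolded protein.

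*Tap1*, *Psmb9*, *Psmb8* and *Tap2* lie side by side in the class II region of the MHC on chromosome 17 (GRCm38). *Psmb9*, on the minus strand, occupies chr17:34182030-34187330, *Tap1* occupies chr17:34187556-34197225 on the plus strand, *Psmb8* chr17:34198195-34201454 and *Tap2* chr17:34204479-34216321, both on the plus strand. *Tapbp* lies on the same chromosome at chr17:33919478-33929290. The other members are dispersed, with *B2m* at chr2:122147687-122153082, *Pdia3* at chr2:121413902-121438687, *Erap1* at chr13:74639573-74693205, all on the plus strand, and *Calr* at chr8:84842088-84846931 and *Psmb10* at chr8:105935728-105938392, both on the minus strand. The coordinates above are those of RefSeq. In the longer gene models of GENCODE vM21, where *Psmb9* extends past the start of *Tap1*, exons of *Tap1* and *Psmb9* overlap, as do those of *Pdia3* with *Catsper2*, *Erap1* with *Cast*, *Tapbp* with *Gm19412*, and *Tap2* and *Psmb8* with *Gm20496*. The library kit does not mark the strand, so reads from such overlaps cannot be told apart.

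Start sites with 250 bases before and 50 after were matched for 9 of the 10 genes in RefSeq (GRCm38.p6). Those of the 5 genes that differed between genotypes are shown, 5′ to 3′ on the strand of the gene, with motif matches in capitals, because the genes fell into a lower and a higher group.
*Psmb8* (chr17:34197945-34198244, plus strand): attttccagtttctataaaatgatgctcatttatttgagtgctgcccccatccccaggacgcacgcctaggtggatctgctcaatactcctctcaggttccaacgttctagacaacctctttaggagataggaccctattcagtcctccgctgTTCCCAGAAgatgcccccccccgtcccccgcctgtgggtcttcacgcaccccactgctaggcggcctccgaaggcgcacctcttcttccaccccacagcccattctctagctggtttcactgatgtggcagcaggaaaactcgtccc
*Psmb9* (chr17:34187281-34187580, minus strand): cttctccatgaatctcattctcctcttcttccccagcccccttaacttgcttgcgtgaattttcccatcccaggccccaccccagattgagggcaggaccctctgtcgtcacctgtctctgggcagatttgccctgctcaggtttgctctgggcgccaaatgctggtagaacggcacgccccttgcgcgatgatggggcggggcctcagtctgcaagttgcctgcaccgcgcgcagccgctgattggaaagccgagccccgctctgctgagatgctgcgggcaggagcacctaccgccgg
*Psmb10* (chr8:105938343-105938642, minus strand): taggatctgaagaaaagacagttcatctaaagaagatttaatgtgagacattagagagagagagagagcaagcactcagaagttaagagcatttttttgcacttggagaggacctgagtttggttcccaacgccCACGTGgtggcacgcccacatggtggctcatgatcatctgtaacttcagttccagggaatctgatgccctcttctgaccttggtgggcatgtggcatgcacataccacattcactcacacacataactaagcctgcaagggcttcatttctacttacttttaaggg
*Calr* (chr8:84846882-84847181, minus strand): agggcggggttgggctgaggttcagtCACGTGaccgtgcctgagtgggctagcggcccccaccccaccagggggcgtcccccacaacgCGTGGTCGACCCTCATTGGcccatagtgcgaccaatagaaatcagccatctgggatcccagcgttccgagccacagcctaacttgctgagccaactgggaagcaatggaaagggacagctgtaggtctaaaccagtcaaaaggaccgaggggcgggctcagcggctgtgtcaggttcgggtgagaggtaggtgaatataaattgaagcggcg
*Pdia3* (chr2:121413652-121413951, plus strand): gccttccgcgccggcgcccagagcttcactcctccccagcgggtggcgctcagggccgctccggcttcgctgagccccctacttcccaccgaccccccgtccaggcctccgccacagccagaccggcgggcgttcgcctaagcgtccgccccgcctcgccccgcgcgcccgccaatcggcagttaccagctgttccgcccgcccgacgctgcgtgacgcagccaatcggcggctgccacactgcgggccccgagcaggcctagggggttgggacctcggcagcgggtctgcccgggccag

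Motifs were searched on both strands. The ER stress response element, CCAAT and CCACG with 9 bases between them, was found in *Calr*, at 162 bases before the start, and in 39 of 32851 promoters of the same length (0.119%). *Calr* and *Psmb10* also held the E-box CACGTG, the sequence bound by BMAL1 and its partner, as did *Erap1*, against 7.15% of all promoters. *Psmb8* held the STAT motif GAS, TTCNNNGAA, found in 8.30% of promoters. The interferon regulatory factor core GAAANNGAA was in *B2m* and *Erap1*, against 8.56%, and the NF-kB motif GGGNNTTCC, in 5.82% of promoters, was in none of the 9. *Psmb9*, *Tap1*, *Tapbp* and *Pdia3* had no match in this window. The windows of *Psmb9* and *Tap1* overlap, as the pair is transcribed in opposite directions.

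Levels between genes were compared as CPM per kb of exon. In the control tumour libraries *B2m* was at 16068 ± 1892 CPM per kb (SD, n = 20), above 99.98% of the 11958 genes with a length. *Psmb8* followed at 1233 ± 121, then *Tapbp* at 684 ± 77.6, *Psmb9* at 530 ± 53.4 and *Psmb10* at 293 ± 23.3 CPM per kb. *Pdia3* (186 ± 13.3), *Tap1* (184 ± 23.7) and *Calr* (181 ± 14.5) were not separated by more than their spread, and *Tapbp* and *Psmb9* also overlapped. *Tap2* was at 139 ± 17.0 and *Erap1*, the lowest, at 22.3 ± 4.49 CPM per kb. The 10 genes thus spanned a wide range, but 9 of them lay above 95.6% of genes and *Erap1* above 77.5%.

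The first comparison asked whether the level depended on the time of injection. Cells were collected 24 h later, at the same ZT, so times of injection and of collection cannot be told apart. In control mice with tumour, none of the 10 genes passed a test for a difference between timepoints. The 4 group means of *Pdia3* ran from 506 to 526 CPM, a ratio of 1.04 between the highest and the lowest, and the widest, those of *Erap1*, from 111 to 134 CPM, a ratio of 1.22. The transporter gene *Tap1* was highest at ZT9, at 598 ± 31.0 CPM (SD, n = 5), and lowest at ZT15, at 502 CPM. *B2m* went the other way, with 12479 ± 905 CPM at ZT9 and 14787 ± 929 CPM at ZT21.

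*B2m* was the 1 member whose highest and lowest groups did not overlap in control mice with tumour. The share of all genes without such overlap was not counted. Its 5 values at ZT9 were 13278, 11197, 12123, 12394 and 13404 CPM. Those at ZT21 were 13714, 16056, 15168, 14934 and 14061 CPM. The groups did not overlap, and ZT9 was lower by 0.25 on the log2 scale (SE 0.11, unadjusted p = 0.0315), but the difference did not pass adjustment over 11963 genes (limma, adjusted p = 0.389). No other member reached an unadjusted p under 0.05 in this contrast.

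A cosinor with a period of 24 h was fitted in each condition. Of the 10 genes, 0 had an adjusted p under 0.05 in control tumour, *Bmal1*ΔcDC or sham libraries (limma), against 0.0251%, 0% and 0% of all genes. At an unadjusted p under 0.05, the threshold of the study's methods, the number was also 0 in each condition, against 9.2%, 10.5% and 7.38% of genes. The smallest unadjusted p were those of *B2m* (0.0641 in control tumour and 0.052 in *Bmal1*ΔcDC libraries) and *Psmb8* (0.059 in *Bmal1*ΔcDC libraries). Fitted amplitudes in control tumour libraries were between 0.03 for *Pdia3* and 0.13 for *B2m* on the log2 scale. Ordinary least squares without moderation gave 1 gene at an unadjusted p under 0.05 in control tumour libraries (*B2m*), 2 in *Bmal1*ΔcDC libraries (*B2m* and *Psmb8*) and 1 in sham libraries (*Calr*). The shares of all genes above are those of the limma fit. With 1 library left out, the limma count was 0 to 2 in control tumour and in *Bmal1*ΔcDC libraries. The 2 in control tumour libraries arose without replicate 3 of ZT3, when 2340 genes passed, against 1101 with all libraries. In *Bmal1*ΔcDC libraries the 2 arose without replicate 3 of ZT21, when 1545 genes passed, against 1258. Among other settings, median-of-ratios scaling raised the *Bmal1*ΔcDC count and array weights the control tumour count, as given at the end.

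The test of any difference among the 4 timepoints, without a shape, gave 0 of 10 genes in each condition at an adjusted p under 0.05, against 5.28% of genes in control tumour libraries, 0% in *Bmal1*ΔcDC and 0% in sham libraries. At an unadjusted p it also gave 0 of 10 in each, against 23.1%, 10.3% and 7.44%. The contrast of ZT9 with ZT21 gave 0 of 10 at an adjusted p, against 0.226%, 0.00836% and 0% of genes, and at an unadjusted p it gave *B2m* in control tumour libraries only, against 11.5%, 10.9% and 5.32%. In the *Bmal1*ΔcDC libraries the widest group means were those of *B2m*, 16079 CPM at ZT9 and 12157 CPM at ZT15. *Psmb8* had means of 2007 CPM at ZT9 and 1580.5 CPM at ZT21, and *Psmb9* of 652 CPM at ZT3 and 509 CPM at ZT15. Picked by their means, the highest and lowest groups in *Bmal1*ΔcDC libraries did not overlap for *B2m*, *Psmb8*, *Psmb9*, *Calr* and *Pdia3*. In sham libraries this held for *Psmb10* and *Erap1*. The share of all genes without such overlap was not counted, and 0% passed the timepoint test at an adjusted p in either condition.

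**Figure D1:**
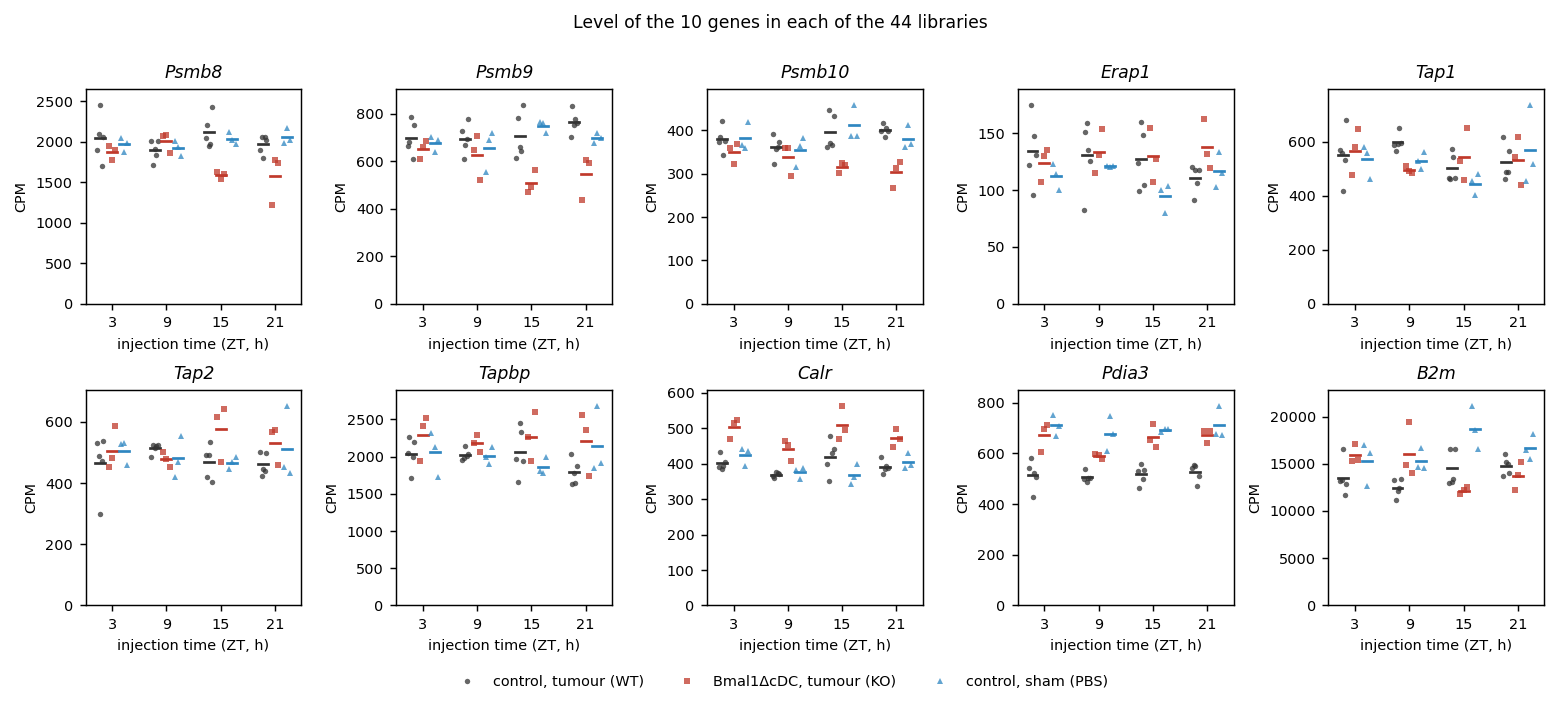
Level (CPM, linear axis from 0) of each gene in each library against the time of injection (ZT, h). Circles are control tumour libraries, squares *Bmal1*ΔcDC tumour libraries, triangles sham libraries, and bars the means of 5, 3 and 3 mice. The *Pdia3* values of the control tumour libraries (427–583 CPM) lie below all sham values (608–786 CPM), and the 3 *Psmb* genes are lowest in *Bmal1*ΔcDC libraries at ZT15 and ZT21.

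The second comparison set *Bmal1*ΔcDC against control mice, both with tumour cells. Averaged over the 4 timepoints, the 3 inducible proteasome genes were lower in *Bmal1*ΔcDC libraries and the lectin-cycle chaperones *Calr* and *Pdia3* were higher, whereas transporter, tapasin, trimming and *B2m* genes did not pass the test. In all, 5 of 10 genes differed (limma, adjusted p under 0.05), against 33.7% of all genes. The direction was split, with 2 of 10 higher, against 23.5% of genes, and 3 of 10 lower, against 10.2%. Across all genes 69.8% of the calls were higher in *Bmal1*ΔcDC libraries, and 49.9% after median-of-ratios scaling, which moved the median difference of all genes from 0.10 to 0.01. Under that scaling the same 5 members were called, each with its direction. In bulk RNA, fewer cells of a type and less RNA per cell cannot be told apart.

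*Psmb9*, the inducible subunit of the site that cuts after acidic residues and, once exchanged, after hydrophobic ones, differed most among the 3. Its lowest, median and highest values were 610, 715 and 839 CPM in control tumour libraries and 439, 599 and 705 CPM in *Bmal1*ΔcDC libraries. The ranges overlapped over all times, with 7 of 12 *Bmal1*ΔcDC values below every control value, but not at ZT15 (471, 490 and 564 against 612 to 839 CPM) or at ZT21 (439, 605 and 593 against 704 to 834 CPM). The difference was −0.31 on the log2 scale (SE 0.06, 95% interval −0.44 to −0.17, adjusted p = 0.000587), a fold of 0.809.

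*Psmb10*, the inducible trypsin-like subunit, had a lowest, median and highest value of 322, 380 and 448 CPM in control tumour libraries and 268, 323 and 369 CPM in *Bmal1*ΔcDC libraries. Of the latter, 6 of 12 lay below every control value, and again the groups did not overlap at ZT15 and ZT21. The difference was −0.24 (SE 0.05, interval −0.34 to −0.13, adjusted p = 0.000706).

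*Psmb8*, the inducible chymotrypsin-like subunit, was the most abundant of them. Its lowest, median and highest values were 1702, 2011 and 2460 CPM in control tumour libraries and 1223, 1780 and 2089 CPM in *Bmal1*ΔcDC libraries. The 3 values at ZT15 (1632, 1539 and 1605 CPM) and at ZT21 (1223, 1779 and 1739 CPM) lay below all control values of those times, but those at ZT9 (2074, 2089 and 1856 CPM) did not. The difference averaged over time was −0.19 (SE 0.06, interval −0.32 to −0.07, adjusted p = 0.0131). Without the pair of libraries that stood apart, an alternative chosen after seeing the data, it was −0.14 (adjusted p = 0.0502) and was no longer called, while *Psmb9*, *Psmb10*, *Calr* and *Pdia3* remained called.

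*Pdia3* encodes ERp57, which is bound to tapasin in the loading complex. It was at 427, 518 and 583 CPM (lowest, median and highest) in control tumour libraries and at 576, 647 and 714 CPM in *Bmal1*ΔcDC libraries. Of the latter, 11 of 12 exceeded every control value, and the groups were separate at all 4 timepoints. The difference was 0.33 (SE 0.05, interval 0.23 to 0.43, adjusted p = 7.04e-06), a fold of 1.26.

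*Calr*, the soluble lectin chaperone of the complex, was at 350, 389 and 479 CPM in control tumour libraries and at 408, 471 and 562 CPM in *Bmal1*ΔcDC libraries. It was higher in *Bmal1*ΔcDC libraries at all 4 timepoints and separate at ZT3, ZT9 and ZT21. The difference was 0.28 (SE 0.05, interval 0.19 to 0.38, adjusted p = 3.5e-05), a fold of 1.22. After median-of-ratios scaling it was 0.19 (adjusted p = 0.00976) and that of *Pdia3* 0.23, whereas those of *Psmb8*, *Psmb9* and *Psmb10* were −0.29, −0.40 and −0.33.

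Neither subunit of the peptide transporter passed the test. *Tap1* was at 419, 562 and 681 CPM in control tumour libraries and 440, 519 and 649 CPM in *Bmal1*ΔcDC libraries, a difference of −0.02 (interval −0.17 to 0.12, adjusted p = 0.825). At ZT9 its *Bmal1*ΔcDC values (484 to 510 CPM) lay below the control values (567 to 650 CPM), a difference that was not called (−0.27, adjusted p = 0.265). *Tap2* was at 300, 492 and 537 CPM and 451, 492 and 643 CPM, a difference of 0.13 (interval −0.02 to 0.29, adjusted p = 0.181). Every value of *Tap1*, *Tap2* and *Tapbp* was a fraction of a read rather than a whole number of reads, in all 44 libraries, whereas the values of the other 7 genes were whole, other than that of *Psmb8* in 1 library.

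*Tapbp*, the bridge between TAP and the heavy chain, was at 1634, 1989 and 2448 CPM in control tumour libraries and 1737, 2274 and 2604 CPM in *Bmal1*ΔcDC libraries. The difference of 0.17 (SE 0.07, interval 0.03 to 0.31) lay at the threshold (adjusted p = 0.0507). It passed under 13 of 42 alternatives, with adjusted p between 0.00677 and 0.391, the highest after median-of-ratios scaling. *B2m*, the invariant light chain, was at 11197, 13319 and 16565 CPM and 11764, 14423 and 19393 CPM, a difference of 0.06 (interval −0.06 to 0.19, adjusted p = 0.466). *Erap1* was at 82.7, 123 and 175 CPM and 107, 131 and 163 CPM, a difference of 0.08 (interval −0.13 to 0.29, adjusted p = 0.584).

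Markers of other cells moved in the same comparison. All 5 NK cell genes, 6 of 7 macrophage and monocyte genes, 4 of 7 genes of type 2 conventional DCs and 4 of 10 T cell genes were higher in *Bmal1*ΔcDC libraries, with medians of 2.01, 0.60, 1.03 and 0.25 on the log2 scale. Of 8 genes of type 1 conventional DCs, *Cadm1* and *Itgae* were higher and *Clec9a*, whose promoter drives the Cre, was lower. Of the Langerhans cell genes, 2 of 3 were higher (*Cd207*, 0.68, and *Epcam*, 0.67, list median 0.67), as were 2 of 4 genes of plasmacytoid DCs (*Siglech*, 1.70, and *Ly6d*, 1.00, list median 0.49). Of the B cell genes 1 of 4 (*Ms4a1*, 0.68) and of the granulocyte genes 1 of 4 (*Retnlg*, 0.73) were higher. After median-of-ratios scaling 4 NK cell, 4 macrophage and monocyte, 3 T cell and 0 granulocyte genes were higher, the higher counts of the other lists were as before, and *Batf3* was lower beside *Clec9a*. *Flt3* of the dendritic cell list and *Ccl17* and *Socs2* of the migratory DC list were called lower with that scaling and not without it. None of the listed genes was at 0 throughout a condition apart from *Mlana*, *Dct* and *Tyrp1* of the melanoma list in sham libraries. The part of these cells, and of the higher depth of the *Bmal1*ΔcDC libraries, in the results was not tested.

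At single timepoints the number of members called was 2 at ZT3 (*Calr* and *Pdia3*), against 5.2% of genes, 0 at ZT9, against 8.94%, 5 at ZT15 (*Calr*, *Pdia3* and the 3 *Psmb* genes), against 14.8%, and 3 at ZT21 (*Pdia3*, *Psmb9* and *Psmb10*), against 14.2%. At ZT9 an unadjusted p under 0.05 was reached by *B2m*, *Calr* and *Pdia3*, against 23% of genes, and ordinary least squares called 2 members. For *Psmb9* the difference was −0.47 at ZT15 and −0.50 at ZT21 (SE 0.13 each), for *Psmb8* −0.41 and −0.33, and for *Psmb10* −0.32 and −0.41. Median-of-ratios scaling took the counts at ZT3, ZT15 and ZT21 to 0, 3 and 2. Over all genes 566, 1112 and 1503 were called with that scaling, against 622, 1768 and 1699 without it. Under it *Calr* and *Pdia3* were called at no single timepoint (adjusted p of *Pdia3* 0.0618 at ZT3, 0.0572 at ZT9, 0.345 at ZT15 and 0.091 at ZT21), while the differences of *Psmb8*, *Psmb9* and *Psmb10* at ZT15 were −0.63, −0.68 and −0.54. The counts also rested on single libraries. The 5 at ZT15 became 0 without *Bmal1*ΔcDC replicate 2, 1 without replicate 1 and 2 without replicate 3. They became 2 without control replicate 5 and 3 without control replicate 2. Over all genes the 1768 calls became 1098, 822, 1106, 1143 and 1598, in that order of libraries. The 3 at ZT21 became 0 without *Bmal1*ΔcDC replicate 1 and 5 without its replicate 3 or control replicate 3 of ZT3. Over all genes the 1699 calls became 753, 1703 and 2005. The 2 at ZT3 became 0 without *Bmal1*ΔcDC replicate 2 or 3, and 1 without its replicate 1 or control replicate 1, 3, 4 or 5. Over all genes the 622 calls became 365, 324, 400, 585, 602, 584 and 442. At ZT9, *B2m* was called without control replicate 3 of ZT3, with 1275 genes called in all, against 1070.

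The difference between the courses over time was tested as an interaction. It was called for 0 of 10 genes (limma), against 0.0502% of all genes. In the same limma fit, *B2m* (F = 5.47, adjusted p = 0.132) and *Psmb8* (F = 3.49, adjusted p = 0.231) passed at the unadjusted threshold, as did 18.3% of genes. The *B2m* means of *Bmal1*ΔcDC libraries were 15917, 16079, 12157 and 13747 CPM at ZT3, ZT9, ZT15 and ZT21, above the control means (13505 and 12479 CPM) at the first pair of times and below them (14505 and 14787 CPM) at the second. The 3 *Bmal1*ΔcDC values at ZT15, 11764, 12192 and 12514 CPM, were all lower than the 5 control values, 12988 to 16555 CPM. *B2m* was called for this interaction with array weights, and without control replicate 3 of ZT3. Over all genes 1071 and 311 were then called, against 6.

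**Figure D2:**
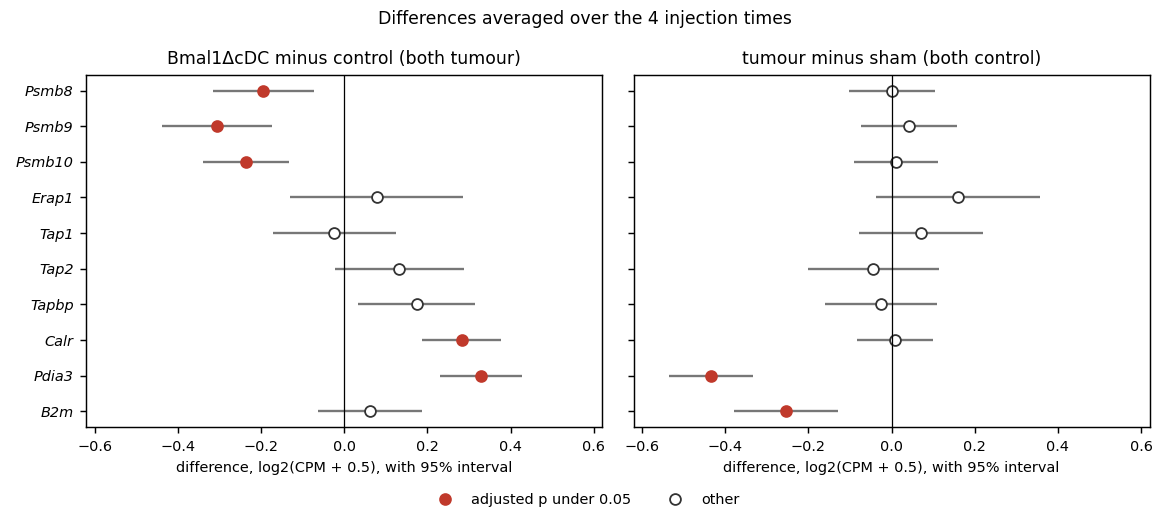
Difference averaged over the 4 injection times (log2 scale, with 95% interval) for each gene, *Bmal1*ΔcDC minus control on the left and tumour minus sham on the right. Filled points have an adjusted p under 0.05. On the left the 3 *Psmb* genes lie below 0 (−0.31 to −0.19) and *Calr* and *Pdia3* above it (0.28 and 0.33). On the right *Pdia3* (−0.43) and *B2m* (−0.25) lie below 0. Both panels use the same control tumour libraries.

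The third comparison set tumour cells against sham injection in control mice. *Pdia3* and *B2m* were lower with tumour and the other 8 members did not pass the test. This was 2 of 10 genes (limma, adjusted p under 0.05), against 37.9% of all genes. Both were lower, against 24.6% of genes, and 0 of 10 were higher, against 13.3%. Among all calls 35.1% were higher with tumour, and 46.1% after median-of-ratios scaling, under which the same 2 members were called. This comparison shares the control tumour libraries with the one between genotypes.

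*Pdia3* was separate in the pooled libraries and at each timepoint. Its sham values were 752, 667 and 709 CPM at ZT3, 608, 748 and 675 at ZT9, 685, 695 and 697 at ZT15, and 676, 786 and 671 at ZT21. All 20 tumour values, 427 to 583 CPM, lay below all of them. The difference was −0.43 (SE 0.05, interval −0.53 to −0.33, adjusted p = 6.63e-08), a fold of 0.740, and −0.38 after median-of-ratios scaling. At ZT3, ZT9, ZT15 and ZT21 it was −0.47, −0.41, −0.42 and −0.43 (SE 0.10 each), with adjusted p of 0.00212, 0.00387, 0.00377 and 0.00426.

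*B2m* was at 12604, 16487 and 21089 CPM (lowest, median and highest) in sham libraries, against 11197, 13319 and 16565 CPM with tumour. The ranges overlapped, though the tumour mean was lower at all 4 timepoints, and 4 tumour values lay below every sham value. The difference was −0.25 (SE 0.06, interval −0.38 to −0.13, adjusted p = 0.00166), a fold of 0.839. It was −0.20 after median-of-ratios scaling (adjusted p = 0.0421), and adjusted p was between 0.000127 and 0.0421 over 41 alternatives.

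The inducible proteasome genes were near 0 in this contrast. *Psmb8* differed by 0.00 (interval −0.10 to 0.11), *Psmb9* by 0.04 (−0.07 to 0.16) and *Psmb10* by 0.01 (−0.09 to 0.11). *Calr* differed by 0.01 (interval −0.08 to 0.10), with sham values of 342, 391 and 442 CPM (lowest, median and highest). *Tap1* (0.07, interval −0.08 to 0.22), *Tap2* (−0.04, −0.20 to 0.11), *Tapbp* (−0.03, −0.16 to 0.11) and *Erap1* (0.16, −0.04 to 0.36) did not pass the test either. Side by side, the control tumour libraries stood at 516 CPM in the mean for *Pdia3*, *Bmal1*ΔcDC libraries at 649 and sham libraries at 697 CPM, and for *Calr* the means were 395, 481 and 393 CPM.

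At single timepoints *Pdia3* alone was called at ZT3, ZT9 and ZT21, against 10.5%, 16.3% and 9.21% of genes. At ZT15 *Pdia3* and *B2m* were called, 2 of 10 against 17.6% of genes. *B2m* differed there by −0.37 (SE 0.12, adjusted p = 0.0361) and was not called after median-of-ratios scaling (−0.27, adjusted p = 0.248) or without control tumour replicate 1, 3 or 4 or sham replicate 1 or 2, all of ZT15. After that scaling *Erap1* was called in its place (0.51, adjusted p = 0.0461). With those libraries left out in turn, 1703, 1661, 1567, 1701 and 811 genes were called in all, against 2106. The interaction of treatment with time was called for 0 of 10 genes (limma), against 0% of genes, and at an unadjusted p also for 0 of 10, against 11.9%. Markers of other cells moved here too, since 5 of 5 NK cell genes, 6 of 7 macrophage and monocyte genes, 10 of 10 T cell genes and 7 of 8 genes of type 1 conventional DCs were lower with tumour, with medians of −3.13, −1.33, −0.56 and −1.09. The eighth, *Batf3*, was higher. Of the genes of type 2 conventional and of plasmacytoid DCs, 4 of 7 and 3 of 4 were lower (medians −1.48 and −1.20), as were 3 of 4 B cell genes (median −0.40), 1 of 4 granulocyte genes (*Csf3r*, −1.66) and 2 of 3 Langerhans cell genes (*Epcam* and *Cd24a*, list median −0.22). Of the 5 defining DC genes, *Itgax*, *H2-Ab1* and *Cd74* were lower with tumour (list median −0.24) and 0 higher. After median-of-ratios scaling 9 T cell, 2 B cell and 2 defining DC genes (*Itgax* and *H2-Ab1*) were lower. The counts of the other lists named here were as before. In the migratory DC list *Fscn1*, *Cacnb3* and *Cd274*, 3 of 7, were higher and 0 lower (median 0.13). The NK cell sums (15.9–54.1 against 77.6–581.1 CPM) did not overlap, and the part of all these cells in the *Pdia3* and *B2m* results was not tested.

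Each inducible catalytic subunit takes the place of 1 constitutive subunit, so the ratio within a library does not depend on how the library was scaled. *Psmb8* was 11.03 times *Psmb5* in control tumour libraries (geometric mean), *Psmb9* 3.42 times *Psmb6* and *Psmb10* 1.81 times *Psmb7*. The ratios are of CPM without correction for transcript length. The 6 tests of a genotype or treatment difference were 2-sided and permuted the condition within timepoints, the 9 F tests over timepoints permuted the libraries of 1 condition across timepoints, and p was adjusted over all 15.

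*Psmb9* over *Psmb6* was lower in *Bmal1*ΔcDC libraries. Its log2 values (lowest, median and highest) were 1.59, 1.77 and 1.89 in control tumour, 1.15, 1.38 and 1.70 in *Bmal1*ΔcDC and 1.28, 1.52 and 1.79 in sham libraries. The genotype difference was −0.36 (permutation p = 1e-05, the smallest that 100000 resamples can give, adjusted p = 7.5e-05), and control tumour libraries exceeded sham libraries by 0.25 (the same p). *Psmb6* itself was lower by 0.20 with tumour than with sham (adjusted p = 0.00734), a call that median-of-ratios scaling removed, and its genotype difference was 0.06 (adjusted p = 0.546).

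*Psmb8* over *Psmb5* was also lower in *Bmal1*ΔcDC libraries, by 0.17 on the log2 scale (permutation test, adjusted p = 0.0004), and did not pass between tumour and sham (0.10, adjusted p = 0.0705). *Psmb10* over *Psmb7* did not pass between genotypes (0.04, adjusted p = 0.445), and was lower with tumour than with sham (−0.15, adjusted p = 0.0066). *Psmb7* was itself lower in *Bmal1*ΔcDC libraries (−0.28, adjusted p = 0.00408), alongside *Psmb10*. Between tumour and sham *Psmb7* was not called (0.16, limma, adjusted p = 0.0527), but was called higher with tumour after median-of-ratios scaling. The 3 ratios thus did not move alike in either comparison, although the 3 *Psmb* genes had the same sign between genotypes. Leaving out sham replicate 2 of ZT21 raised the tumour difference of *Psmb8* over *Psmb5* to 0.13 (adjusted p = 0.0078), and it also passed without control tumour replicate 1 of ZT3 (0.11) or 2 of ZT15 (0.11).

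Over the timepoints, *Psmb8* over *Psmb5* differed in *Bmal1*ΔcDC libraries, with log2 means of 3.45 at ZT3, 3.35 at ZT9, 3.17 at ZT15 and 3.19 at ZT21 (F = 8.26, exact permutation p = 0.0103, adjusted p = 0.031). The ratio was also higher at ZT3 than at ZT15 in control tumour (3.54 and 3.40) and sham libraries (3.53 and 3.21), where the test did not pass (adjusted p = 0.146 and 0.155). In *Bmal1*ΔcDC libraries it did not pass without any of 8 libraries in turn (all 3 of ZT3, replicates 2 and 3 of ZT9 and of ZT15, and replicate 3 of ZT21), with F between 5.70 and 7.88. In sham libraries it passed without replicate 2 of ZT21 (F = 9.51, adjusted p = 0.0192). *Psmb9* over *Psmb6* in control tumour libraries had an adjusted p of 0.0705 (F = 3.85), and passed without replicate 3 of ZT3 (F = 4.95, adjusted p = 0.0394). With the replicate block this ratio passed in control tumour libraries, and *Psmb8* over *Psmb5* did not pass in *Bmal1*ΔcDC libraries, as given at the end.

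**Figure D3:**
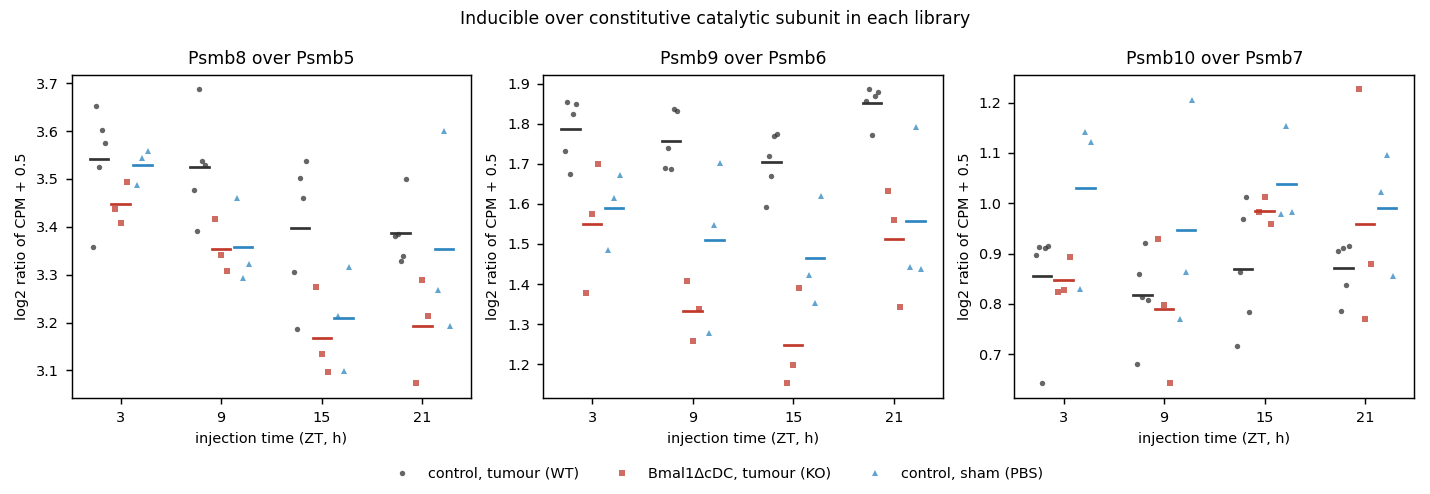
Log2 ratio of the inducible over the constitutive catalytic subunit (CPM + 0.5) in each library against the time of injection (ZT, h), with symbols as in the plot of levels and bars for group means. The axes do not start at 0. In the middle panel the control tumour libraries (1.59 to 1.89) lie mostly above *Bmal1*ΔcDC (1.15 to 1.70) and sham libraries (1.28 to 1.79).

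The genes around the 10 members were counted in lists. Of all genes, 23.5% were called higher and 10.2% lower in *Bmal1*ΔcDC libraries. With tumour, 13.3% were called higher and 24.6% lower than with sham. Of the 3 class I heavy chain genes, *H2-K1* (−0.21, adjusted p = 0.000196) and *H2-T23* (−0.15, adjusted p = 0.0324) were lower in *Bmal1*ΔcDC libraries and *H2-D1* was not called (−0.07, adjusted p = 0.181), although it was called lower after median-of-ratios scaling. *H2-K1* was higher with tumour than with sham (0.15, adjusted p = 0.00184), at 7904 to 9041 CPM against 7229 to 8594 CPM, and the other 2 were not called. Genes of the MHC are near-identical copies in parts, so short reads may be split among them. Of the activator PA28 and the assembly factor, *Psme1* (−0.22) and *Psme2* (−0.23) were lower in *Bmal1*ΔcDC libraries (adjusted p = 0.00376 and 0.0104) and *Pomp* was not called. Against sham, *Psme2* was higher with tumour (0.17, adjusted p = 0.0218) and *Pomp* lower (−0.21, adjusted p = 0.0168), a call that median-of-ratios scaling removed.

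The constitutive proteasome list held genes of the core, which carries the inducible subunits (*Psma* and *Psmb*), and of the regulatory cap (*Psmc* and *Psmd*). Of the 28 listed genes, 10 were higher and 2 lower in *Bmal1*ΔcDC libraries. By p they were led by *Psmc1* (0.38), *Psmd6* (0.30), *Psmd12* (0.29) and *Psmc4* (0.25), all of the cap. Of the core genes, *Psma1* and *Psmb2* were higher and *Psmb1* and *Psmb4* lower. The list median was 0.09, beside 0.10 for all genes, and 0.00 beside 0.01 after median-of-ratios scaling, under which 4 were higher and 4 lower. With tumour, 13 of 28 were lower than with sham and 0 higher, with a median of −0.14 beside −0.04 for all genes. Among them were the same 4 genes (−0.41, −0.33, −0.27 and −0.25). After median-of-ratios scaling 7 were lower and 1 higher.

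The ER stress genes are targets of the unfolded protein response, to which *Calr* and *Pdia3* also belong. Of 16 genes, 10 were higher and 0 lower in *Bmal1*ΔcDC libraries, with a median of 0.27 beside 0.10 for all genes. *Hspa5*, the main ER chaperone BiP, was at 318, 354 and 415 CPM (lowest, median and highest) in control tumour, 452, 584 and 781 CPM in *Bmal1*ΔcDC and 501, 574 and 619 CPM in sham libraries. Control tumour values did not overlap with those of either other condition, and differed by 0.78 between genotypes (adjusted p = 1.69e-11) and by −0.66 between tumour and sham (adjusted p = 2.76e-11). By p, *Pdia6* (0.51), *Pdia4* (0.63) and *Dnajb11* (0.41) followed in the first comparison. With tumour, 11 of 16 were lower than with sham and 2 higher, with a median of −0.36 beside −0.04, among them *Pdia6* (−0.63), *Xbp1* (−0.53) and *Pdia4* (−0.55). After median-of-ratios scaling 8 were higher and 1 lower between genotypes, and 10 lower and 2 higher against sham.

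Of 8 other genes of loading, trimming and ER quality control, only *Canx*, the membrane-bound partner of calreticulin, was higher in *Bmal1*ΔcDC libraries (0.32, adjusted p = 0.00124), at 331, 391 and 503 CPM against 258, 323 and 426 CPM in control tumour libraries. It was not called against sham (−0.07, adjusted p = 0.504). *Lnpep*, an endosomal aminopeptidase, and *Uggt1*, the glucosyltransferase that returns heavy chains to calreticulin, were higher with tumour than with sham (0.61 and 0.36, adjusted p = 0.000239 and 0.00169), and 0 of 8 were lower. After median-of-ratios scaling *Uggt1*, *Lnpep* and *Sec61g* were called lower between genotypes.

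Of 7 regulators of class I transcription, *Irf2* (0.26) and *Rfxap* (0.28) were higher and *Rfxank* (−0.22) lower in *Bmal1*ΔcDC libraries, *Rfxap* not after median-of-ratios scaling. *Nlrc5*, the class I transactivator, was at 61.0, 141 and 203 CPM in control tumour and 72.2, 114 and 164 CPM in *Bmal1*ΔcDC libraries and was not called (−0.28, adjusted p = 0.146), although it was after median-of-ratios scaling, and it was higher with tumour than with sham (0.44, adjusted p = 0.0114). In that comparison *Rfxap* (−0.43, adjusted p = 0.000339) and *Irf2* (−0.20, adjusted p = 0.014) were lower with tumour, *Irf2* not after median-of-ratios scaling. Of 26 interferon-stimulated genes, 4 were higher and 3 lower in *Bmal1*ΔcDC libraries, against 23.5% and 10.2% of all genes. The list median was −0.01 beside 0.10 for all genes. *Cxcl10* (1.13), *Gbp4* (0.41) and *Ifit1* (0.44) rose and *Rsad2* fell by 0.40. After median-of-ratios scaling 2 were higher, *Ifit1* no longer among them, and 4 lower. With tumour, 3 were higher and 7 lower than with sham, against 13.3% and 24.6% of all genes. Those lower included *Cxcl10* (−1.68), *Cxcl9* (−1.47), *Iigp1* (−1.08) and *Igtp* (−0.42). Of 11 class II genes, *H2-DMb1* (0.46) and *Ctss* (0.17) were higher in *Bmal1*ΔcDC libraries and 0 lower, against 23.5% and 10.2% of all genes. After median-of-ratios scaling *Ctss* was not called and *H2-Aa* was called lower. With tumour, 8 were lower than with sham and 0 higher, against 24.6% and 13.3% of all genes. The list median was −0.30 beside −0.04 for all genes. *H2-DMb1* (−0.87) and *H2-DMa* (−0.81) led the 8, and 5 were lower after median-of-ratios scaling.

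**Figure D4:**
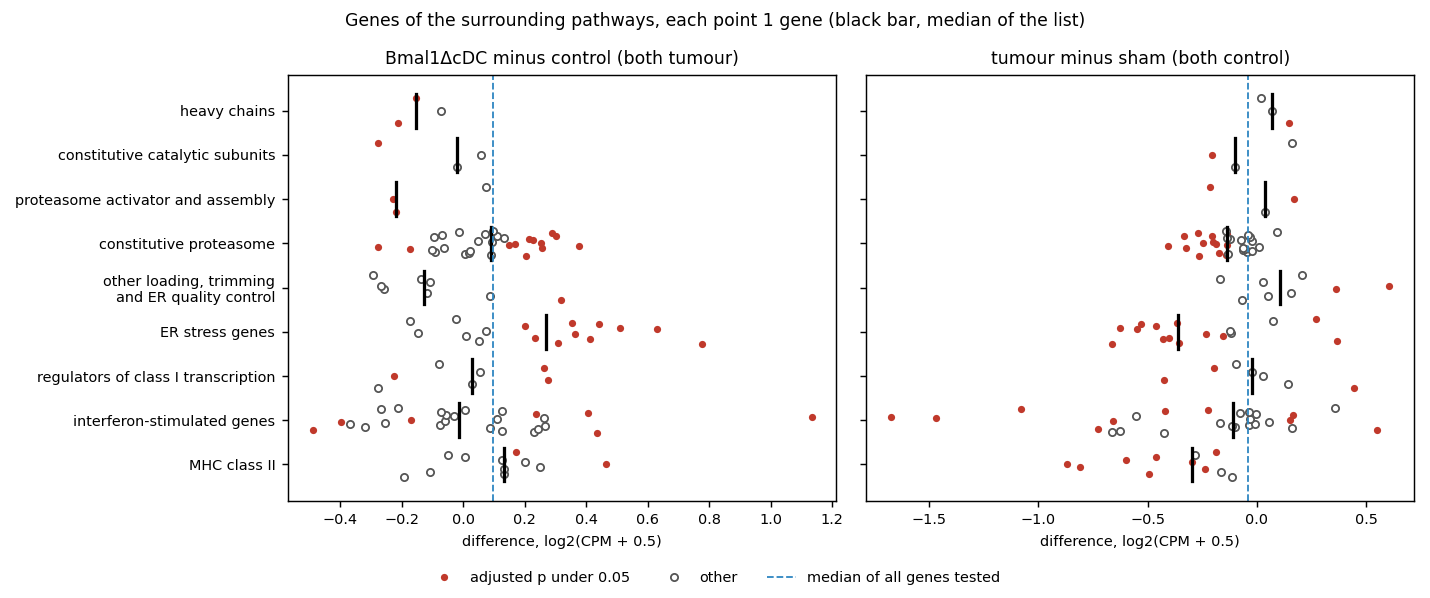
Difference averaged over the 4 injection times (log2 scale) for each gene of the surrounding lists, *Bmal1*ΔcDC minus control on the left and tumour minus sham on the right. Filled points have an adjusted p under 0.05, black bars are list medians, and the dashed line is the median of all genes tested. The ER stress genes have a median of 0.27 on the left and −0.36 on the right.

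How the members varied together was described in the 20 control tumour libraries after the timepoint means were subtracted. *Psmb8* and *Psmb9* varied together (Pearson r = 0.84, Spearman rho = 0.86, permutation test adjusted over 5 pairs, adjusted p = 0.0002 and 0.00035). Without the 2 libraries farthest from the *Psmb8* median r was 0.82, and after median-of-ratios scaling 0.93. In the same terms r was 0.78 in the 12 *Bmal1*ΔcDC libraries and −0.13 in the 12 sham libraries. *Tap2* and *Psmb8*, neighbours in the genome, had r = −0.67 (rho = −0.54, permutation test, adjusted p = 0.0364 and 0.0442). Without the 2 farthest libraries r went to −0.33, and after median-of-ratios scaling to −0.42, neither of which passed. *B2m* and *Tap1* likewise went from r = −0.61 (rho = −0.52, adjusted p = 0.0364 and 0.0602) to −0.39 and −0.17. *Calr* and *Pdia3* had r = 0.48 (rho = 0.18, adjusted p = 0.0565 and 0.498), 0.26 without the 2 farthest and 0.56 after median-of-ratios scaling (permutation test, adjusted p = 0.147). *Tap1* and *Psmb9*, whose start site windows overlap, had r = −0.31 (rho = −0.35, adjusted p = 0.22 and 0.215), and 0.02 after median-of-ratios scaling. Over all 45 pairs the median r was −0.22 in control tumour, 0.04 in *Bmal1*ΔcDC and 0.31 in sham libraries, and after median-of-ratios scaling it was 0.18, 0.17 and 0.32. Within these pairs, *Tap1* and *Tap2* had r = 0.83, 0.89 and 0.81 in the same order of conditions, *Tap1* and *Tapbp* 0.81, 0.90 and 0.96, and *Tap2* and *Tapbp* 0.73, 0.86 and 0.85, all 3 being the genes whose values were fractions of a read. *Psmb9* and *Psmb10* had r = 0.88, 0.81 and 0.70. *B2m* with *Psmb8*, *Psmb9* and *Psmb10* had r = 0.84, 0.89 and 0.91 in control tumour, 0.49, 0.75 and 0.54 in *Bmal1*ΔcDC and 0.49, 0.41 and 0.11 in sham libraries, the last 3 being 0.64, 0.53 and 0.23 after median-of-ratios scaling. These values are a description, since both genes of a pair were read in the same library and scaled by its total.

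The gene outside the set most like each member over the 20 control tumour libraries, which share timepoints and preparation, was taken by Pearson r as a description. It was *Chchd2* for *B2m* (r = 0.97), *Snrnp200* for *Erap1* (0.94), *Cfl1* for *Psmb8* (0.94), *Cyba* for *Psmb10* (0.93), *Dpp3* for *Tapbp* (0.93), *Lrsam1* for *Tap2* (0.92), *Tbc1d20* for *Tap1* (0.91), *Zmat2* for *Psmb9* (0.89), *G3bp1* for *Calr* (0.87) and *Nup107* for *Pdia3* (0.81). Of these, *Chchd2* kept the highest r in the other conditions, at 0.81 in *Bmal1*ΔcDC and 0.93 in sham libraries, whereas r of *G3bp1* with *Calr* was 0.01 and 0.57.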

How the data were processed

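The deposited table held CPM values. Per the paper's methods and the submitters' processing notes, the authors made SMART-Seq libraries, aligned 50-base single reads with STAR 2.7.0 to mm10, counted reads per gene with HTSeq 0.9.1 and scaled by library size to CPM. Tested were genes that reached 1 CPM in 5 or more libraries, on log2(CPM + 0.5), with limma 3.58.1 (R 4.3.3) and Benjamini-Hochberg adjustment over all 11963 genes. Fold changes are on that scale. Cosinor and timepoint fits used 1 condition each, and genotype and treatment fits used the 32 libraries of both conditions with a mean per group. Ratios and member pairs were tested by permutation (Python 3.11.15, numpy 2.4.6, 100000 resamples, or all 369600 arrangements of 12 libraries). The CPM values came out as whole reads for 87.5–89.3% of values (tolerance 0.01 read), too few for a count test. The members and lists were chosen with earlier results of these data known. Named were all members, up to 4 called genes of each list by p, and the gene most like each member. *H2-D1*, *Sec61g* and genes named only for their arm values were singled out after their values were seen. Alternatives covered pseudocount, filter, scaling, moderation, weights, replicate block and each library left out. The fits were tested on simulated data with 100 genes changed at each size. The control tumour cosinor recovered 26% of them at an amplitude of 0.3 on the log2 scale, and 88% at 1. The genotype fit recovered 28% at a difference of 0.3 and 90% at 1. The changed genes were drawn from all 11963, so these shares do not give the power for the members. Columns of all 44 libraries were used. Which mice shared an experiment is not given in the labels, so p-values measure the spread between these libraries.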

Additional observations from a re-analysis of the deposited data

Results flagged for a closer look

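In groups of 5 libraries, 1 library lay far from the other 4 in 4 of 52 groups of values, where chance gives about 1 in 20. *Tap2* in control tumour replicate 3 at ZT3 was at 299.9 CPM, with the others at 472 to 537 CPM. *Tap2* in control tumour replicate 1 at ZT9 was at 486 CPM, with the others at 516 to 525 CPM. The log2 ratio of *Psmb10* over *Psmb7* in control tumour replicate 3 at ZT3 was 0.64, with the others at 0.90 to 0.91. That of *Psmb9* over *Psmb6* in control tumour replicate 3 at ZT21 was 1.77, with the others at 1.86 to 1.89.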

How the results depend on the processing

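Averaged over time, the count of members called between genotypes was 5 to 6, and between treatments 2, with any 1 library left out, and 4 between genotypes without the pair of libraries that stood apart. Median-of-ratios scaling gave 0 members at ZT3, 3 at ZT15, 2 at ZT21 (without *Pdia3*) and 3 at an unadjusted p in the *Bmal1*ΔcDC cosinor. It also took the pairs *Tap1*–*Psmb9* to r = 0.0227, a reversed sign, *Tap2*–*Psmb8* to −0.42 and *B2m*–*Tap1* to −0.17, and leaving out the 2 farthest libraries took the last 2 pairs to −0.33 and −0.39. The *Bmal1*ΔcDC cosinor count at an unadjusted p was 1 with a pseudocount of 0.1 or array weights, and 2 with no filter, a filter on means under 10 CPM, an intensity trend or ordinary least squares. The count in the control tumour cosinor was 1 with ordinary least squares and 2 with array weights. Over all genes 1169 and 2680 then passed, against 1101 in the main fit. In the sham cosinor the count was 1 with ordinary least squares, with 900 genes passing, against 883. Between genotypes, the count at ZT9 was 1 with a filter on means under 10 CPM and 2 with ordinary least squares or array weights. Calls over all genes there were 1001, 1100 and 1795, against 1070 in the main fit. At ZT21 the count of members was 5 with that filter, an intensity trend or ordinary least squares, and 6 with array weights. Calls over all genes there were 1567, 1896, 1781 and 3675, against 1699 in the main fit. Array weights gave 1 member by time between genotypes, and 2 between treatments at ZT9, where 2514 instead of 1947 genes were called in all. The cause was not tested.

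Over all genes no pairing by replicate number was seen. Deviations of same-numbered libraries had a mean r of −0.00307, against 0.00107 for other numbers, and the lowest was −0.237. Single genes and ratios were not examined for such pairing. By mean r within a condition, 1 of 20 control tumour, 6 of 12 *Bmal1*ΔcDC and 0 of 12 sham libraries correlated best with their own number, which is a hint from the data and not from the design. With the replicate block, 3278 instead of 4031 genes were called between genotypes, 0 members at ZT3, 3 at ZT15 (*Psmb8*, *Psmb9* and *Pdia3*) and 1 between treatments at ZT15, where *B2m* had an adjusted p of 0.0774 (limma). The block gave F = 17.3 for *Psmb9* over *Psmb6* in control tumour libraries (permutation test, adjusted p = 0.0003). For *Psmb8* over *Psmb5* in *Bmal1*ΔcDC libraries it gave 8.42 (adjusted p = 0.103). The divisor of these F values left out the block, so their size cannot be set against F without it. The permutation p does not depend on that divisor.

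With 1 library left out, counts between genotypes were 0 to 2 at ZT3, 0 to 1 at ZT9, 0 to 5 at ZT15, 0 to 5 at ZT21 and 0 to 1 by time, and 1 to 3 between treatments at ZT15. Cosinor counts at an unadjusted p were 0 to 2 in control tumour libraries (2 without replicate 3 of ZT3). In *Bmal1*ΔcDC libraries they were 0 to 2 (1 without replicate 2 of ZT9 or of ZT21, 2 without replicate 3 of ZT21). Over all genes 2340 then passed in the former, against 1101, and 1020, 1364 and 1545 in the latter, against 1258. F was 2.93 to 4.95 for *Psmb9* over *Psmb6* in control tumour, 5.70 to 11.8 for *Psmb8* over *Psmb5* in *Bmal1*ΔcDC and 1.92 to 9.51 in sham libraries, and its treatment difference was 0.0802 to 0.131. Of the single members and genes, 1855 values kept their call over the other settings, 24 gained it and 11 lost it. Depth differed between conditions and limits which differences could be seen in low genes, although the lowest member, *Erap1*, had at least 1748 reads in every library.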
